A study of Drosophila melanogaster with 2 samples.

Results

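The regions described here are peaks of CG2202 binding at the promoters of long noncoding RNA genes in Drosophila melanogaster embryos. Of 30000 pooled peaks, 671 had a summit within 500 bp of a transcription start site (TSS) of a gene whose symbol starts with lncRNA: or asRNA:, and within 500 bp of no protein-coding TSS. The prefix asRNA: marks antisense RNA genes, and 87 of the 671 peaks lay nearest to one of them. Of the 671 peaks, 94 were in the list of peaks that passed the irreproducible discovery rate (IDR) threshold, called IDR peaks here, and 577 were not.

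Binding was measured by chromatin immunoprecipitation and sequencing (ChIP-seq) in whole embryos of 0 to 12 h from a transgenic line in which CG2202 carries GFP at its C-terminus, with an antibody against GFP. There were 2 biological replicates, both from this line and with the same control alignment, and no second condition. Whole embryos mix all cell types, so a peak cannot be assigned to one of them. The labels do not say whether the untagged protein is also present.

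Long noncoding RNAs are transcribed by RNA polymerase II, and most are spliced, capped and polyadenylated without being translated. Antisense RNAs start within or near another gene and run against it. In flies a few have well described roles, among them the roX RNAs of dosage compensation, the heat shock RNA Hsromega and the RNA of the piRNA cluster flamenco, while most carry only a CR number.

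Strong IDR peaks at these promoters are shown first, as the 101 bp centred on the summit, because base composition is the feature in which IDR peaks differed most from the others. They are the 6 of highest signal outside one chromosome arm whose sequences are not shown. On that arm lie lncRNA:CR44339 and lncRNA:CR44380, the second and the fifth of all by signal, with A and T runs of 35 and 9 bases. Sequences are on the plus strand of the Release 6 assembly (dm6) from RefSeq. Capitals mark the longest run of A and T alone, or the first such run where runs of equal length tie. This run is 7 to 18 bases long in the 6 windows shown. In order, the windows are chr2L:14024039-14024139, chr3R:29214398-29214498, chr3R:17700526-17700626, chr3R:11780242-11780342, chr3L:19560777-19560877 and chr2L:15911230-15911330.
lncRNA:CR31840: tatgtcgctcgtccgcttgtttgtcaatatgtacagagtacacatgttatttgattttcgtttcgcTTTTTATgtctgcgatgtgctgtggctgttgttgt
lncRNA:CR31044: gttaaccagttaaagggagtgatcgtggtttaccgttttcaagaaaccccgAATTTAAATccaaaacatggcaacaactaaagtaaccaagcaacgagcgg
lncRNA:CR46036: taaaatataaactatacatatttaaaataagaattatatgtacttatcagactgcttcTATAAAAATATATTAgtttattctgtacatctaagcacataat
lncRNA:CR45595: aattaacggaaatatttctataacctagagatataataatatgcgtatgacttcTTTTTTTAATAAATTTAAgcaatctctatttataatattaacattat
lncRNA:CR44676: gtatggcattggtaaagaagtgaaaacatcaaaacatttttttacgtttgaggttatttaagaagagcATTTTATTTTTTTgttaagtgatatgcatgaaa
lncRNA:CR44867: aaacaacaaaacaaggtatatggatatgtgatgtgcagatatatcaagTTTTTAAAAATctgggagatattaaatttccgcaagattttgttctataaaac

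The strongest peaks that missed the IDR list are shown in the same way for comparison. They lie at chrX:19788105-19788205, chrX:6983970-6984070 and chrX:3363809-3363909, and their longest A and T runs are 5 to 8 bases.
lncRNA:CR44885: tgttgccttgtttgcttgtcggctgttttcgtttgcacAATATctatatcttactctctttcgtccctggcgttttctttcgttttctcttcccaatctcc
lncRNA:CR44084: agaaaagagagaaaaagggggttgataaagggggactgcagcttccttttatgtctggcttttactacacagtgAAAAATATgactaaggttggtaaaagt
lncRNA:CR46243: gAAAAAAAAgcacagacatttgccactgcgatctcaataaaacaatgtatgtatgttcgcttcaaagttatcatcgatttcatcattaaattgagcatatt

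Peaks that hold TATAAA, the TATA box word, are shown next with that word or its reverse complement TTTATA in capitals, since it was more frequent in the IDR peaks. These are the 3 strongest that are not shown above, at chr3R:9393837-9393937, chrX:3546260-3546360 and chr2L:14022302-14022402.
asRNA:CR46145: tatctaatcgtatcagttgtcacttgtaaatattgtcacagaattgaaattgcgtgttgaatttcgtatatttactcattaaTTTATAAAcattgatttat
lncRNA:CR34335: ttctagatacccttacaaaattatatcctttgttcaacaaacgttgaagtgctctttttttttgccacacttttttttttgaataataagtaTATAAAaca
lncRNA:CR45352: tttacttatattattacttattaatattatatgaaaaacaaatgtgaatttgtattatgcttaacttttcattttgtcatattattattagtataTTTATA

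Within these 101 bp, CAGCTG, a palindromic E-box form, was found in peaks outside the IDR list only, while within 100 bp to either side it was in 5.32% of the IDR peaks and 9.71% of the others. Of these, 3 of the strongest lie at chr2L:3616634-3616734, chr3L:19239925-19240025 and chr3R:7037506-7037606, with the word in capitals.
lncRNA:CR44310: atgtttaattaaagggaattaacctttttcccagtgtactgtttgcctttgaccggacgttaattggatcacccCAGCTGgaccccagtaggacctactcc
lncRNA:CR43892: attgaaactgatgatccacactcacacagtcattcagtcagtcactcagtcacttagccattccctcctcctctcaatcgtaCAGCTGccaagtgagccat
lncRNA:CR44933: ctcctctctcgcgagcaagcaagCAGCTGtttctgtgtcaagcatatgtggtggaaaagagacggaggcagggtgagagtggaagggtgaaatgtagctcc

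The share of these peaks in the IDR list lay between that of all pooled peaks and that of peaks at coding promoters, though its interval includes the former. The IDR share was 14.0% (94 of 671, exact binomial 95% interval 11.5 to 16.9%), against 11.9% of all pooled peaks and 17.3% of the 8740 pooled peaks at protein-coding promoters. Peaks within 500 bp of both kinds of TSS, 311 in number and not counted among the 671, were in the IDR list in 19.6% of cases (15.3 to 24.5%). Of the 20589 pooled peaks at neither kind of promoter, 9.55% were (9.15 to 9.96%). These shares are descriptions and were not tested. A q-value under 0.05 was given to 300 of the 671 peaks, 44.7%, against 44.0% of all pooled peaks. It was below that value for all 94 IDR peaks and for 206 of the other 577, so most of the others did not reach it. Depth is unknown, and intervals cover the counting of peaks only.

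The 671 peaks lay nearest to 545 of the 2447 lncRNA and asRNA genes annotated on the 6 chromosome arms, and the 94 IDR peaks to 90 genes. At 4 genes there were 2 IDR peaks, and at none 3 or more. The pairs at lncRNA:CR31840 (signals 1689.6 and 169.7) and at lncRNA:CR44380 (659.3 and 316.6) are single peak intervals with 2 summits, so they share reads. At lncRNA:CR45251 (364 and 287.8) and lncRNA:CR45451 (161.4 and 140.6) the intervals are separate.

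Signal, the caller's own value per peak, fell steeply over these peaks. The median was 44.6 (quartiles 33.5 to 78.4), close to the 44.1 of all pooled peaks (32.9 to 73.0). Among the IDR peaks the median was 212.6 (168.7 to 349.9), against 190.6 at coding promoters (145.1 to 294.8). The IDR list holds the peaks of highest signal, so signal separates it from the rest by construction. The weakest IDR peaks here were at lncRNA:CR45820 (122.5), lncRNA:CR44206 (122.5) and lncRNA:CR44755 (121.3). The strongest peaks outside the list were at lncRNA:CR44885 (119.9), lncRNA:CR44084 (118.4) and lncRNA:CR46243 (117.5).

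**Figure D1:**
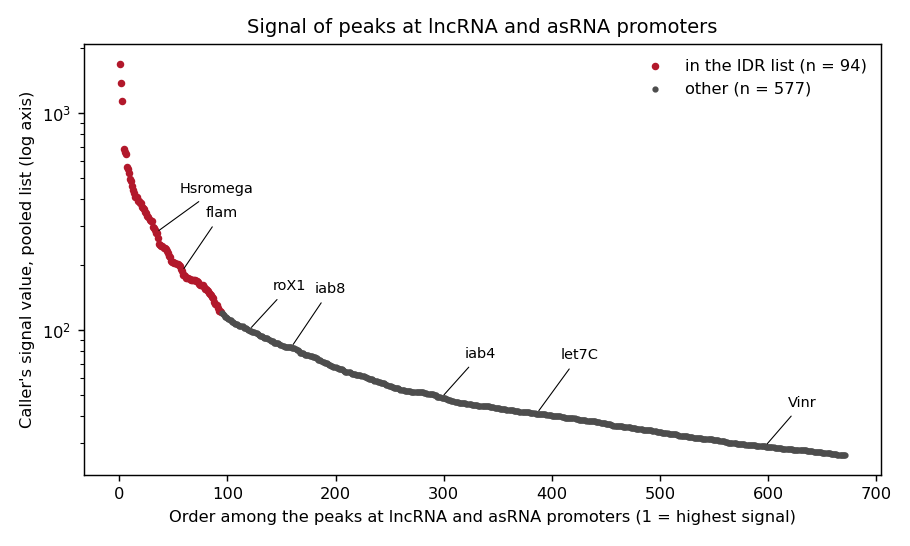
The caller's signal value of each of the 671 peaks at lncRNA and asRNA promoters (log axis), in order of signal, with some genes of known name marked. Red points are the 94 IDR peaks and grey points the other 577; the highest value is 1689.6, and Hsromega and flam lie within the red points.

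A handful of peaks stood above the others. The strongest was at lncRNA:CR31840 (FBgn0051840), with signal 1689.6 and rank 5 among all pooled peaks, at chr2L:14023883-14024670. Its summit lay 10 bp downstream of the TSS, in the exon, and 2912 bp from the nearest coding TSS, that of hll. The next was at lncRNA:CR44339 (FBgn0265427, signal 1378, rank 13), at chr2R:12985013-12985418, in intergenic sequence 150 bp upstream of the TSS. Its nearest coding TSS, 4223 bp away, belongs to Psc, which encodes a Polycomb group protein, and the 35-base run of A and T at its summit is the longest of the first 25 peaks. The third was at lncRNA:CR31044 (FBgn0051044, signal 1135, rank 26), at chr3R:29214255-29214618, 114 bp upstream of the TSS and 5724 bp from that of eEF1gamma, a translation elongation factor gene. These 3 were the only ones of the set within the top 100 of the pooled list, and 35 were within the top 1000.

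Several of the following peaks lay inside coding genes on the opposite strand. The summit at lncRNA:CR46036 (684.3, chr3R:17700400-17700744) is in an intron of osa, which encodes a subunit of the Brahma chromatin remodelling complex. Those at lncRNA:CR44867 (550.8) and lncRNA:CR44868 (359.1) are in introns of beat-Ib, a member of the beat family of axon guidance genes. The summit at lncRNA:CR46102 (486.2) is in its exon and in an intron of LpR2, a lipophorin receptor gene. An intron of Dif, which encodes an NF-kappaB factor of the Toll immune pathway, holds the one at lncRNA:CR44409 (428.1), and introns of FER, a tyrosine kinase gene, and gce, a juvenile hormone receptor gene, hold those at asRNA:CR46145 (409.4) and asRNA:CR44429 (351). The summit at asRNA:CR46145 was 659 bp from a TSS of FER. That at asRNA:CR44429 was 531 bp from a TSS of gce, the smallest distance to a coding TSS among the 94 IDR peaks. On the same strand as its host, lncRNA:CR34335 (392.4) starts in DIP-alpha, which encodes an immunoglobulin domain protein of neurons.

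Others lay in intergenic sequence or in the noncoding gene itself. Intergenic summits were those of lncRNA:CR45595 (649.1), lncRNA:CR45588 (496), lncRNA:CR45541 (384.5, 1724 bp from the TSS of the hexokinase gene Hex-A), lncRNA:CR45352 (369.4), lncRNA:CR45251 (364) and lncRNA:CR45645 (346.6). At lncRNA:CR42657 (528.2) and lncRNA:CR45668 (439.7) the summits were 654 bp from the TSS of nej, which encodes the acetyltransferase CBP, and 651 bp from that of Act5C, a cytoplasmic actin gene. These pass the 500 bp limit narrowly, as do those at asRNA:CR46145 and asRNA:CR44429. In all, 9 of the 94 IDR peaks had a coding TSS within 1000 bp. Summits in an exon of the noncoding gene were those of lncRNA:CR44380 (659.3), lncRNA:CR44676 (561), lncRNA:CR43626 (459.6), lncRNA:CR45365 (391.8) and lncRNA:CR46535 (384.6), and that of lncRNA:CR45290 (410.2) was in an intron. Some of these genes are shorter than 500 bp, so a peak counted at a promoter can lie at the far end of the gene. The summit at lncRNA:CR44676, 363 bp downstream of the TSS, is such a case.

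Of the 25 strongest IDR peaks, 17 had a summit upstream of the TSS, 17 a TSS in no coding gene and 20 a GC content under 35%. Over all 94, 36 summits were intergenic (38.3%, 28.5 to 48.9%), 34 lay in an exon of a lncRNA or asRNA gene (36.2%, 26.5 to 46.7%), 23 in an intron of any gene (24.5%) and 1 in an exon of another gene alone. Of the other 577 peaks, 28.8% were intergenic, 46.8% in such an exon, 19.2% in an intron and 5.20% in an exon of another gene alone. These classes are given without a test.

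Genes with a given name in place of a CR number had 17 of the 671 peaks, at 15 genes. Of the 17, 3 were IDR peaks, 17.6% (3.80 to 43.4%), a share near the 14.0% of all 671. The strongest was at lncRNA:Hsromega, the heat shock RNA of nuclear omega speckles, with signal 280.9 at chr3R:21296271-21296453, 233 bp downstream of the TSS. A second peak there, 60 bp upstream of a TSS, had 86.7 and was outside the IDR list. lncRNA:flam, the precursor of the flamenco piRNA cluster that silences transposons in ovarian follicle cells, had an IDR peak of 186.1 at chrX:21631497-21631896, 194 bp upstream. lncRNA:TS2 had one of 169.1, 76 bp upstream.

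The others with a given name were all outside the IDR list. lncRNA:roX1 (99.9) and lncRNA:roX2 (79.6 and 52.7) encode the RNAs of the dosage compensation complex on the male X chromosome. In the bithorax complex of Hox genes, lncRNA:iab8, whose transcript hosts a microRNA, had a peak of 83.1 and lncRNA:iab4 one of 48.8. lncRNA:yar, which lies by the yellow gene, had 103.8, and lncRNA:let7C, the host of the let-7 microRNA, had 41.1. lncRNA:acal, known from JNK signalling in dorsal closure, had 39.8. The remaining ones were asRNA:bsAS (78.6), antisense to the wing vein gene blistered, lncRNA:marge (67.2), lncRNA:TS16 (59.8), lncRNA:Vinr (29.0) and asRNA:Eig63F-2 (26.7), the last close to the lowest pooled value. The q-value was not under 0.05 at lncRNA:let7C (0.120), lncRNA:acal (0.139), lncRNA:Vinr (0.373) and asRNA:Eig63F-2 (0.434). Replicate 2 had no peak over those at lncRNA:acal, lncRNA:Vinr and asRNA:Eig63F-2, and replicate 1 none over that at lncRNA:marge.

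Where the summits lay relative to the TSS was compared to ask whether the IDR peaks sit at the annotated start sites of these genes. How exactly the annotation places these starts was not checked, so distances hold only as far as it does. Upstream summits made up 60.6% of the IDR peaks (57 of 94, 50.02 to 70.6%) and 49.9% of the others (288 of 577, 45.8 to 54.1%), a difference that did not pass (odds ratio 1.55, 0.991 to 2.41; adjusted p = 0.220 by Fisher's exact test). With a window of 250 bp it passed, at 74.1% and 52.9% (Fisher's exact test, adjusted p = 0.0355). Distances of 250 bp or less were found for 51.1% and 53.7% (odds ratio 0.899, 0.581 to 1.39; adjusted p = 0.985 by Fisher's exact test). The median summit position was -84.5 bp in the IDR peaks (quartiles -219 to 275) and 1 bp in the others (-212 to 253).

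The first bases of the transcribed side held few IDR summits. There were 7 in the 200 bp from the TSS onward, 7.45%, against 30 in the 200 bp upstream, 31.9%. The others had 121 (21.0%) and 136 (23.6%) in the same bands. Further downstream, from 200 to 500 bp, there were again 30 IDR summits (31.9%), against 29.1% of the others. From 200 to 500 bp upstream the shares were 28.7% and 26.3%. These bands were chosen after the values had been seen and are not tested. At coding promoters the IDR summits were more often upstream, 75.8% against 54.2% of the other peaks there, but the odds ratio at noncoding promoters was not told apart from this one after adjustment over the 6 features compared (ratio of odds ratios 0.583, 0.367 to 0.925, Zelen's exact test, adjusted p = 0.0958). At the coding promoters the summit was within 250 bp of the TSS for 80.9% of IDR and 75.8% of other peaks.

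**Figure D2:**
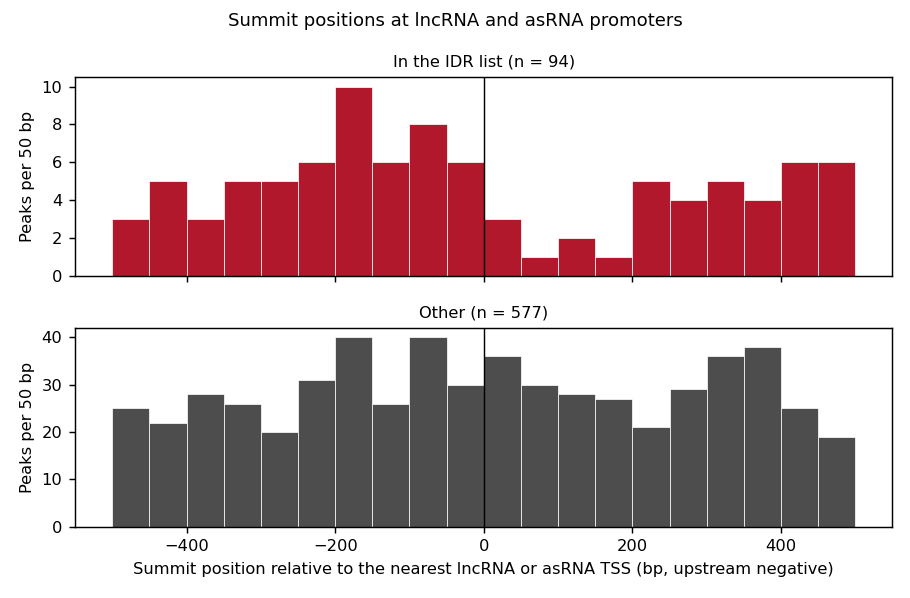
Summit positions relative to the nearest lncRNA or asRNA TSS, in bins of 50 bp with upstream negative, as the number of peaks per bin. The 94 IDR peaks (top) are few in the first 200 bp downstream, 7 in number (7.45%), whereas the other 577 (bottom) hold 121 there (21.0%). From 200 to 500 bp downstream the shares are 31.9% and 29.1%.

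The IDR summits were AT-rich. GC content within 50 bp of the summit averaged 32.6% (SD 9.42, n = 94 peaks) in the IDR peaks and 42.8% (SD 9.80, n = 577 peaks) in the others, and the 6 arms had 42.2%. It was under 35% in 65 of 94 IDR peaks, 69.1% (58.8 to 78.3%), and in 137 of 577 others, 23.7% (20.3 to 27.4%), with an odds ratio of 7.20 and an interval of 4.46 to 11.6 (adjusted p = 3.60e-16 by Fisher's exact test). Seen the other way, 32.2% of the peaks with GC under 35% were IDR peaks (25.8 to 39.1%) and 6.18% of the rest (4.18 to 8.76%). The features were chosen with earlier results of these data known, so the test of GC content is not independent of them.

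The values by peak overlapped. GC ran from 13.9% to 59.4% in the IDR peaks (quartiles 26.7 to 37.6%) and from 16.8% to 67.3% in the others (35.6 to 49.5%). The lowest, 13.9%, was at lncRNA:CR45352, whose sequence is shown above, and those of lncRNA:CR46036 and lncRNA:CR45595 were both 18.8%. Among the 3 peaks of highest signal, lncRNA:CR44339 had 19.8%, while lncRNA:CR31840 (40.6%) and lncRNA:CR31044 (41.6%) were not under 35%. The longest run of A and T in the window had a median of 10 bases in the IDR peaks (quartiles 7 to 12.8) and 7 in the others (6 to 10).

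The low GC content was narrow. In windows of 51 bp the mean of the IDR peaks was 30.9% at the summit (SEM 1.00), 35.6% and 35.5% at 50 bp to either side, and 41.5% and 41.4% at 100 bp. At 500 bp to either side it was 43.1% and 43.4%. The others had 42.9% at the summit (SEM 0.477) and 41.9% and 43.3% at 100 bp.

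**Figure D3:**
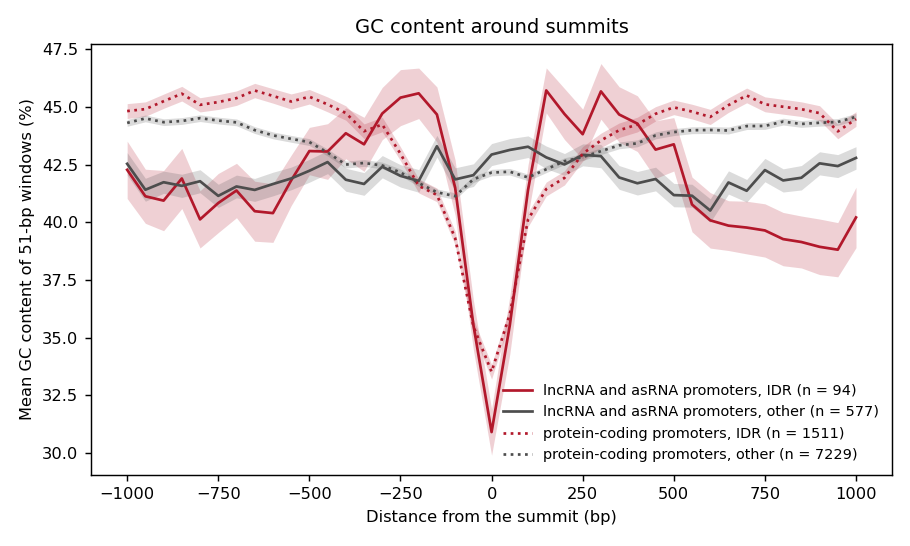
Mean GC content (%) in 51-bp windows against distance from the summit (bp), with bands of 1 SEM over peaks. Solid lines are lncRNA and asRNA promoters, dotted lines protein-coding promoters, red IDR peaks and grey the other peaks; the red lines fall to 30.9% and 33.5% at the summit, where the grey lines are at 42.9% and 42.2%.

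The same contrast was present beyond noncoding promoters. At coding promoters GC was under 35% in 58.4% of 1511 IDR peaks and 25.3% of 7229 others, and over all pooled peaks in 59.9% and 26.1%. The odds ratio at noncoding promoters was higher than the one at coding promoters, but not beyond the threshold after adjustment (ratio 1.74, 1.06 to 2.84, Zelen's exact test, adjusted p = 0.0958). Of the 6 features compared in this way 0 passed, and 2, the upstream position and GC content, had an unadjusted p under 0.05 by Zelen's exact test. Sequencing and fragmentation can depend on base composition, and their part in the GC difference was not tested. GC content also differed between the replicates. When each replicate's own list was used, its top 3571 peaks at these promoters, as many as the IDR list holds, averaged 37.1% in replicate 1 (n = 107 peaks) and 30.6% in replicate 2 (n = 99 peaks), against 44.7% and 39.8% for its other peaks there.

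Consensus words of known promoter factors were counted in the same 101 bp, on either strand. TATAAA was found in 26 of 94 IDR peaks, 27.7% (18.9 to 37.8%), and in 67 of 577 others, 11.6% (9.11 to 14.5%), against 13.8% of all pooled peaks (odds ratio 2.91, interval 1.73 to 4.89; adjusted p = 0.00107 by Fisher's exact test). The word is itself made of A and T. Of the 26, 24 had GC under 35%, and within that range it was in 36.9% of IDR peaks and 27.7% of others. A comparison within 4 GC strata, added once the data were known, moved the difference from 16.0 to 4.38 percentage points, and it no longer passed (Mantel-Haenszel odds ratio 1.32). Nor did it pass when replicate 1 alone was used, at 19.6% and 10.6% (Fisher's exact test, adjusted p = 0.0703). With replicate 2 alone it passed, at 27.3% and 14.3% (Fisher's exact test, adjusted p = 0.0207). At coding promoters the word was in 24.0% and 12.5%.

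CAGCTG was in 0 of the 94 IDR peaks, which allows a share of up to 3.19% counted as 3 peaks of 94 and up to 3.85% by the exact binomial interval, and in 33 of 577 others, 5.72% (3.97 to 7.94%), against 4.98% of all pooled peaks (Fisher's exact test, adjusted p = 0.0457). The call held with a window of 1000 bp and with TSSs taken from gene records, and was lost in the other 11 alternatives that gave a value. The 94 strongest of the other peaks had it in 0 cases as well. Over all pooled peaks CAGCTG was in 3.44% of IDR peaks and 5.18% of the rest, and at coding promoters in 4.50% and 7.43%. The word GAGAG, bound by GAGA factor, was in 10.6% and 17.3% (odds ratio 0.568, 0.285 to 1.13; adjusted p = 0.283 by Fisher's exact test), against 12.4% of all pooled peaks. Over all pooled peaks GAGAG was in 9.38% of IDR peaks and 12.8% of the rest, and at coding promoters in 8.80% and 13.9%. The remaining words were rare. TATCGATA, the DRE bound by Dref, was in 0 and 2 peaks, GGTCACACT, core promoter motif 1, in 0 and 1, and CAGGTAG, bound by Zelda, in 0 and 6, with adjusted p = 1 by Fisher's exact test for each. Over all pooled peaks TATCGATA was in 1.04%, GGTCACACT in 0.7% and CAGGTAG in 0.533%. At coding promoters TATCGATA was in 39 of 1511 IDR peaks (2.58%) and 240 of 7229 others (3.32%). These shares are higher than the 0 and 0.347% at noncoding promoters, a difference that was not tested.

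**Figure D4:**
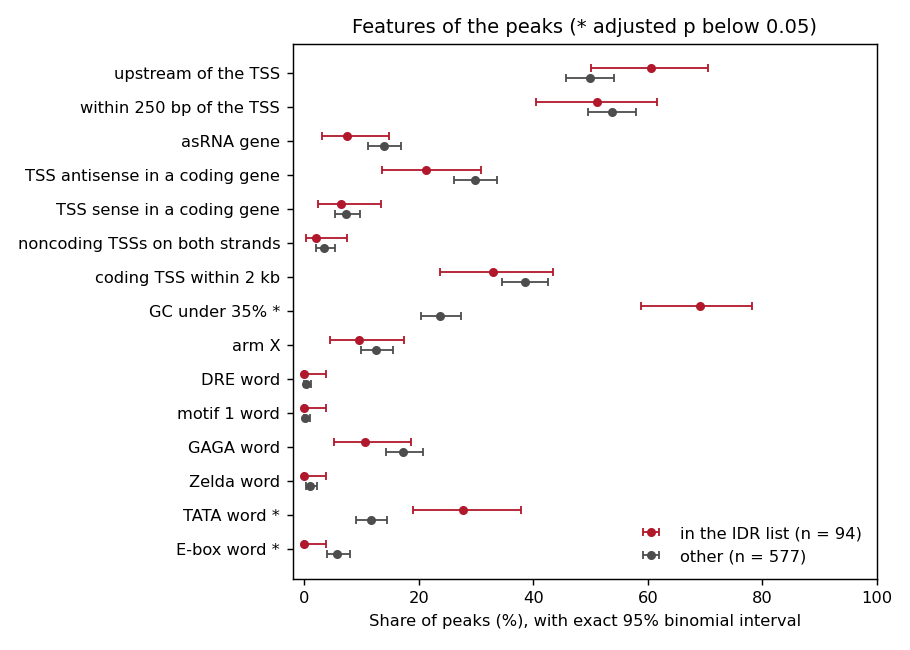
Share of peaks (%) with each of the 15 features, for the 94 IDR peaks (red) and the other 577 peaks (grey) at lncRNA and asRNA promoters, with exact 95% binomial intervals. The intervals stand apart for GC under 35% (69.1% and 23.7%), TATAAA (27.7% and 11.6%) and CAGCTG (0 and 5.72%), and overlap for the other 12 features.

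No difference in the kind or surroundings of the noncoding gene passed the test. asRNA genes accounted for 7 of 94 IDR peaks, 7.45% (3.05 to 14.7%), and 80 of 577 others, 13.9% (odds ratio 0.4999, 0.223 to 1.12; adjusted p = 0.273 by Fisher's exact test). In the list of replicate 1 alone this passed, at 4.67% and 14.5% (Fisher's exact test, adjusted p = 0.0327), and in that of replicate 2 it did not, with the same direction. The TSS lay inside a coding gene on the opposite strand for 21.3% and 29.8% (odds ratio 0.636, 0.376 to 1.08; adjusted p = 0.273 by Fisher's exact test) and on the same strand for 6.38% and 7.28% (Fisher's exact test, adjusted p = 1). For 2 and 20 peaks the noncoding TSSs within 500 bp lay on both strands (Fisher's exact test, adjusted p = 1). A coding TSS lay within 2000 bp of 33.0% and 38.5% (odds ratio 0.787, 0.496 to 1.25; adjusted p = 0.673 by Fisher's exact test).

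Arm X held 9.57% of the IDR peaks and 12.5% of the others (odds ratio 0.743, 0.358 to 1.54; adjusted p = 0.829 by Fisher's exact test). By arm, the IDR share was 20.9% on 2R (24 peaks, 13.9 to 29.4%), where it was 11.1% of all pooled peaks. It was 14.7% on 2L and 14.3% on 3R, against 12.7% of all pooled peaks on either arm. On X it was 11.1%, as over all pooled peaks there, and on 3L 9.94% against 11.7%. On arm 4 it was 0 of 4 peaks (exact interval up to 60.2%) against 10.2%. Only X was tested, and the value on 2R is a description.

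The replicates were compared to ask whether both embryo collections held these peaks. Replicate 1 had a peak over 92 of the 94 IDR peaks, by 1 bp or more, and replicate 2 over 94. Both replicates had 69 of them among their own top 3571 peaks (73.4%, 63.3 to 82.0%), and 25 were there in 1 replicate only. Of the other 577 peaks, 17 overlapped peaks of both top lists (2.95%, 1.73 to 4.68%), 44 of 1 and 516 of neither. A peak took the rank of the strongest replicate peak it overlapped, and 25 of the 577 overlap an IDR peak. Such a peak can carry its neighbour's rank. The weaker peak at lncRNA:Hsromega (86.7) had ranks 1037 and 953, the same as the IDR peak there. How many of the 17 are among the 25 was not counted. The IDR list derives from the replicate lists, so this overlap is not an independent measure.

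Ranks varied more than these counts show. Spearman's rho between the ranks was 0.490 for the 92 IDR peaks that both replicates list and 0.695 for all 416 such peaks, as descriptions over peaks that share 2 libraries. The 2 IDR peaks with no peak in replicate 1 were those of lncRNA:CR46102 and lncRNA:CR44409, which ranked 161 and 186 in replicate 2. The 5 that differed most ranked high in 1 list only. lncRNA:CR45941, in an intron of the Wnt receptor gene fz2, ranked 864 in replicate 1 and 13237 in replicate 2, lncRNA:CR45565 ranked 1266 and 10773, and lncRNA:CR44206 ranked 2089 and 9628. In the other direction, asRNA:CR43469 ranked 7041 and 1085, and lncRNA:CR46265, in an intron of the choline acetyltransferase gene ChAT, ranked 6715 and 1126. Of the peaks of highest signal, lncRNA:CR31840 ranked 3 and 36, lncRNA:CR44339 18 and 13, and lncRNA:CR31044 16 and 46, while lncRNA:CR45365 ranked 149 and 2376.

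**Figure D5:**
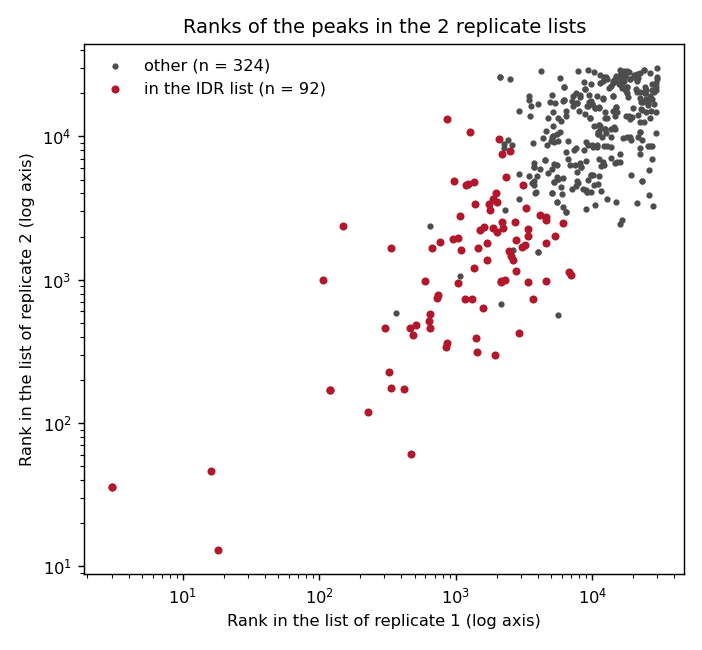
Rank of the strongest overlapping peak in the list of replicate 1 against that in the list of replicate 2 (both log axes, 1 = highest signal), for the 416 peaks found in both. The 92 IDR peaks (red) lie towards the low ranks, with lncRNA:CR31840 at 3 and 36, and the highest rank among them in replicate 2 is 13237.

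Peak width also differed, as the caller set it. All 577 other peaks were 400 bp wide, whereas 33 of the 94 IDR peaks were, with a median of 318.5 bp and a range of 100 to 788 bp, so an IDR peak was usually narrower.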

How the data were processed

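Processed peak lists of 2 replicate ChIP-seq samples of CG2202-GFP embryos were used, 1 list per replicate, a pooled list and an IDR list, on dm6. Which aligner, caller and IDR threshold were used is not given in the sources used here. The signal value of each peak is the authors' own, as deposited, and was used within 1 list only. The deposited −log10 q-value of each peak was used for the threshold of 0.05 alone. Read depths are unknown, so intervals count peaks and not reads. Per the deposited text files, each list was derived from the alignment of the replicates it covers and of one control.

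TSSs, from every transcript, and gene spans came from Ensembl release 115, whose assembly is that of dm6, without transposable elements. Sequence came from RefSeq's Release 6. A pooled peak with the same coordinates and summit as a peak of the IDR list was an IDR peak. IDR and other peaks were compared over 15 features by two-sided Fisher's exact tests, adjusted over the 15 by Benjamini-Hochberg and called at 0.05. Intervals of odds ratios are 95% Wald intervals. Whether an odds ratio differed between noncoding and coding promoters was tested with Zelen's exact test, adjusted over 6 features. This comparison was added with the data in view, and the approximate Woolf test, run first, made the same calls. A p-value here refers to the peaks in these lists, since peaks do not replicate the experiment. The peaks, features and words were chosen with earlier results of these data known. Named are the 25 IDR peaks of highest signal, all peaks at genes with a given name, the 3 peaks to either side of the IDR limit, the 5 of largest rank difference and genes with 3 or more IDR peaks, with those of 2 added. Shown sequences leave out one chromosome arm. Tests ran in scipy 1.17.1 and statsmodels 0.14.6 under Python 3.11.15, tables in pandas 2.3.3 and numpy 2.4.6, and plots in matplotlib 3.10.9. The code was tested on simulated data.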

Additional observations from a re-analysis of the deposited data

How the results depend on the processing

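Of 278 values recomputed under 15 alternatives, 227 kept their direction and side of the threshold, or moved little. Differences that passed in neither setting count among those kept. For GC content, position and rank, little means within the SD of the single-replicate values. These values are themselves among the alternatives, so the tally is a loose description. The GC difference between IDR and other peaks passed in each of the 13 alternatives in which it was computed, at 28.7 to 49.6 percentage points, lowest against the strongest other peaks. Differences below are in percentage points, IDR minus other. Windows of 250 and 1000 bp were applied to noncoding and coding TSSs alike. TATAAA (16.0) did not pass with windows of 250 bp (11.8), the strongest other peaks (14.9), the top 1000 IDR peaks (12.5) or GC strata (4.38), and was 9.05 to 12.9 in single replicates. CAGCTG (-5.72) did not pass with windows of 250 bp (-4.29), coding TSSs left out within 1000 bp (-5.82) or kept (-4.11), 1 peak per gene (-5.71), no peaks overlapping an IDR peak (-5.25), other peaks of q below 0.05 (-6.31), the top 1000 (-5.19), bases within 100 bp (-4.39), GC strata (-2.83) or single replicates (-3.25 to -2.75), and gave no value against the strongest other peaks, where neither side held it. The upstream share passed with 250 bp (21.2), GAGAG with 1000 bp (-7.85), and the asRNA share in replicate 1 (-9.83, against -8.23 in replicate 2). The cause was not tested.

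Other differences changed direction without passing in either. Coding TSSs within 2000 bp did so with 250 bp (2.63), 1000 bp (1.34) and coding TSSs kept (2.28), and sense hosts with 1000 bp (1.42) and q below 0.05 (2.01) and between replicates (-5.22 to 0.952). With coding TSSs kept so did TATCGATA (0.323) and GGTCACACT (1.69), with bases within 100 bp GAGAG (1.69), and with the top 1000 the share within 250 bp (0.984; -8.60 to 2.49 in single replicates) and arm X (2.34; -3.86 to 2.25).

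Peaks numbered 396 with 250 bp, 1009 with 1000 bp, 300 with q below 0.05 and 188 against the strongest others, and IDR peaks 54, 147, 155 with coding TSSs kept and 35 in the top 1000. The median IDR position was -51 bp with 1000 bp, -50 with coding TSSs kept, -114 in the top 1000 and -65 to -51 in single replicates. The median rank of all these peaks (14759) was 13015 with coding TSSs kept, 13496 with 1 peak per gene, 6144 with q below 0.05, 3589 against the strongest others and 13847 to 14447 in single replicates. Of the 35 IDR peaks here within the top 1000, 94.3% were in both replicates' top lists. No paired analysis was possible because there is 1 group. Depth is unknown and sets limits that could not be computed.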

Other observations

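Some peaks at lncRNA and asRNA promoters lay by a small noncoding RNA gene. The annotated start of a microRNA or small nucleolar RNA gene was within 500 bp of 13 of the 671 summits. Whether transcription begins at these starts is not known from the data, and the share over all pooled peaks was not computed. Further lncRNA and asRNA genes were not counted here. Of these 13 peaks, 0 were IDR peaks (exact 95% interval up to 24.7%), which does not set them apart from the 14.0% of all 671. lncRNA:CR45360 had 2 peaks, with signals 38.0 and 30.6, near the start of mir-1, the muscle microRNA. lncRNA:CR45345 had 1 with 35.3 near mir-375. These signals lie below the 41.1 at lncRNA:let7C, where the q-value was not under 0.05. The strongest of the 13, at 106.2, was at lncRNA:CR44805, near the small nucleolar RNA gene snoRNA:Psi18S-176.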
